A study of Mus musculus with 31 samples.

Results

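The libraries described here compare mouse bone marrow-derived macrophages that received dexamethasone (Dex), the BRD9 degrader dBRD9 and lipopolysaccharide (LPS) with macrophages that received Dex and LPS without the degrader. Each group held 3 libraries, 6 of the 31 RNA-seq libraries of the series, and they were chosen by their sample labels alone. The cells were grown from the marrow of male C57BL/6J mice aged 6 to 12 weeks in medium conditioned by L-929 fibroblasts, a source of macrophage colony-stimulating factor. Both groups had Dex at 1 µM overnight and then LPS at 100 ng/ml for 3 h. The Dex + dBRD9 + LPS group also had dBRD9 at 250 nM, overnight together with Dex. Experiment 1 of the series held these groups and 5 others of 3 libraries: vehicle, LPS, LPS with dBRD9, LPS with the BRD9 bromodomain inhibitor iBRD9, and LPS with Dex and iBRD9. Experiment 2 held 5 groups of 2 libraries, in which the stimulated groups had interferon gamma (IFNg) beside LPS, at a dose and time that the labels do not give. The comparison asks what degradation of BRD9 changed in macrophages that met LPS in the presence of a glucocorticoid.

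Dexamethasone is a synthetic glucocorticoid. It binds the glucocorticoid receptor, a transcription factor encoded by Nr3c1, which then raises anti-inflammatory genes and restrains part of the program that LPS starts through Toll-like receptor 4, NF-κB and interferon regulatory factors. BRD9 is a bromodomain protein and a defining subunit of the non-canonical BAF complex, a chromatin remodeler that also holds BICRA or its paralog BICRAL. dBRD9 links a BRD9 bromodomain ligand to a ligand of cereblon, the substrate receptor of a ubiquitin ligase, so that the BRD9 protein is ubiquitinated and degraded. The degrader acts on the protein, and the Brd9 transcript therefore does not check the labels.

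Sequencing gave between 19253941 and 29912533 counted reads per library over experiment 1, and 19253941 to 25772663 in the 6 libraries compared. Of 35275 gene identifiers, 12662 had enough reads to be tested. Levels are given in CPM, each count as a rate over the library's total after TMM scaling, and fold changes as log2 of Dex + dBRD9 + LPS over Dex + LPS. A gene was called changed at a Benjamini-Hochberg adjusted p under 0.05 in edgeR's quasi-likelihood test over all 12662 genes. The fit held all 21 libraries of experiment 1, so the spread behind each p-value came from all 7 groups. The labels do not say whether libraries of a group came from separate animals or cultures, so that spread is one between libraries. The 10 macrophage markers, among them Csf1r, Adgre1 and Cd68, all had enough reads to be tested.

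The first library of each group stood apart from the other two by transcript length. Across 7367 genes of at least 10 CPM, Spearman's rho between transcript length and the deviation from the group mean was -0.683 in the first Dex + LPS library, and 0.601 and 0.639 in the other two. In the Dex + dBRD9 + LPS group it was -0.522, 0.323 and 0.436. The trend was larger in size in the Dex + LPS library: its shortest genes, the first of 10 bins by length (median 1467 bases), lay 0.244 above the group mean on the log2 scale and the last bin (median 13140 bases) 0.304 below it (-0.304), against 0.0683 and -0.113 in the first degrader library. The imbalance carried into the log2 fold change, whose rho with length was 0.272 with all libraries and -0.0135 without both first libraries. In the shortest of 4 equal groups of genes 79 were called higher and 328 lower, and without both first libraries 179 and 272. The counts of called genes and of called list members in this comparison were therefore also computed without both first libraries, with an offset for length, and with the library number as a block. A gene is described as called in all 4 fits where it passed in the same direction in each.

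**Figure D1:**
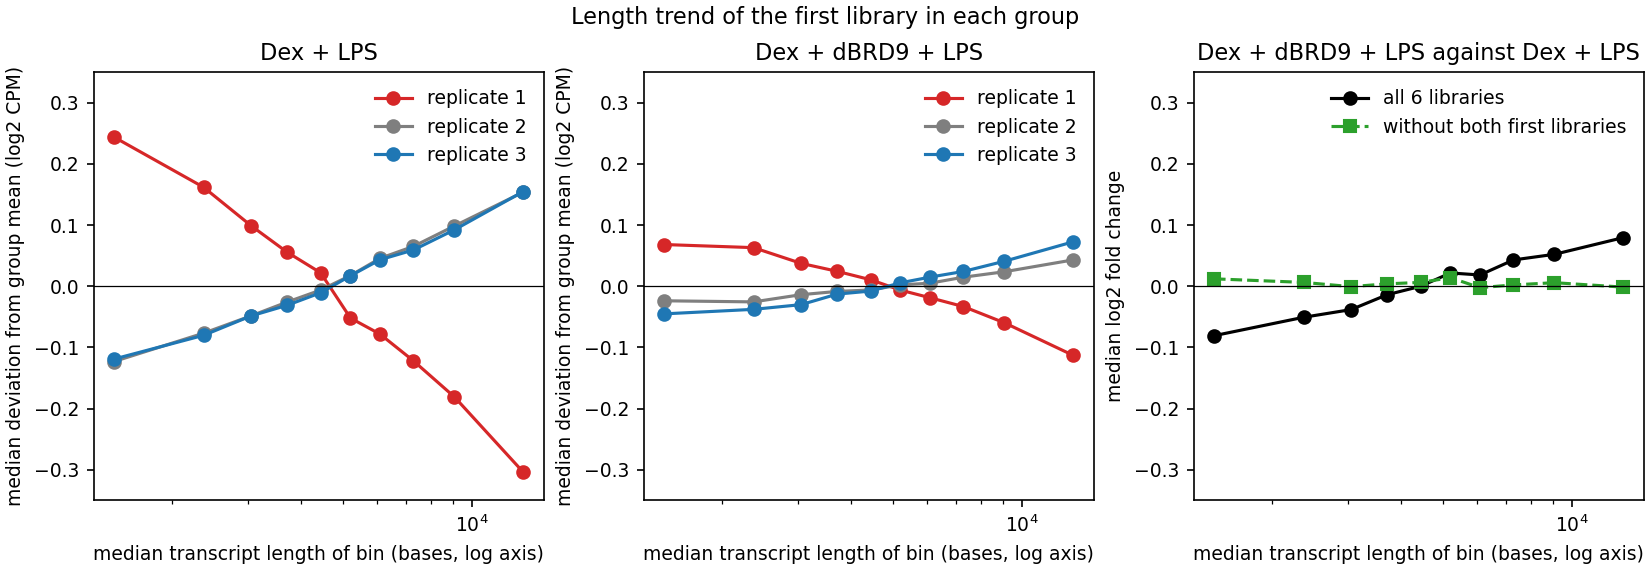
Median deviation of each library from its group mean (log2 CPM) in 10 bins of genes by transcript length, for the 3 Dex + LPS and the 3 Dex + dBRD9 + LPS libraries, and the median log2 fold change in the same bins with all 6 libraries and without both first libraries. The line of the first Dex + LPS library falls from 0.244 to -0.304 with length, and the median log2 fold change rises from -0.0808 to 0.0796 with all libraries but stays within 0.0122 and -0.00136 at both ends without the first libraries.

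With the degrader 824 genes were higher (6.51% of those tested) and 1175 were lower (9.28%). At least 2-fold changes were mostly decreases, 193 lower (1.52%) against 42 higher (0.332%). In all 4 fits the called increases numbered 550 and the decreases 949, and 29 and 155 reached 2-fold. With the library number as a block, 1438 genes were higher (11.4%) and 1632 lower (12.9%). The balance of directions depended on scaling. With library totals alone 1598 genes were higher and 843 lower, 65.5% of calls in place of 41.2%, as the median over all genes moved from 0.00948 to 0.0734, a shift under 0.1 on the log2 scale. With DESeq2's size factors 666 were higher and 1378 lower (32.6% higher). Of the 235 genes with at least 2-fold changes, 233 kept their call with library totals alone and 234 with DESeq2's size factors. When only the 6 libraries were fitted, 142 genes were higher and 437 lower.

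**Figure D2:**
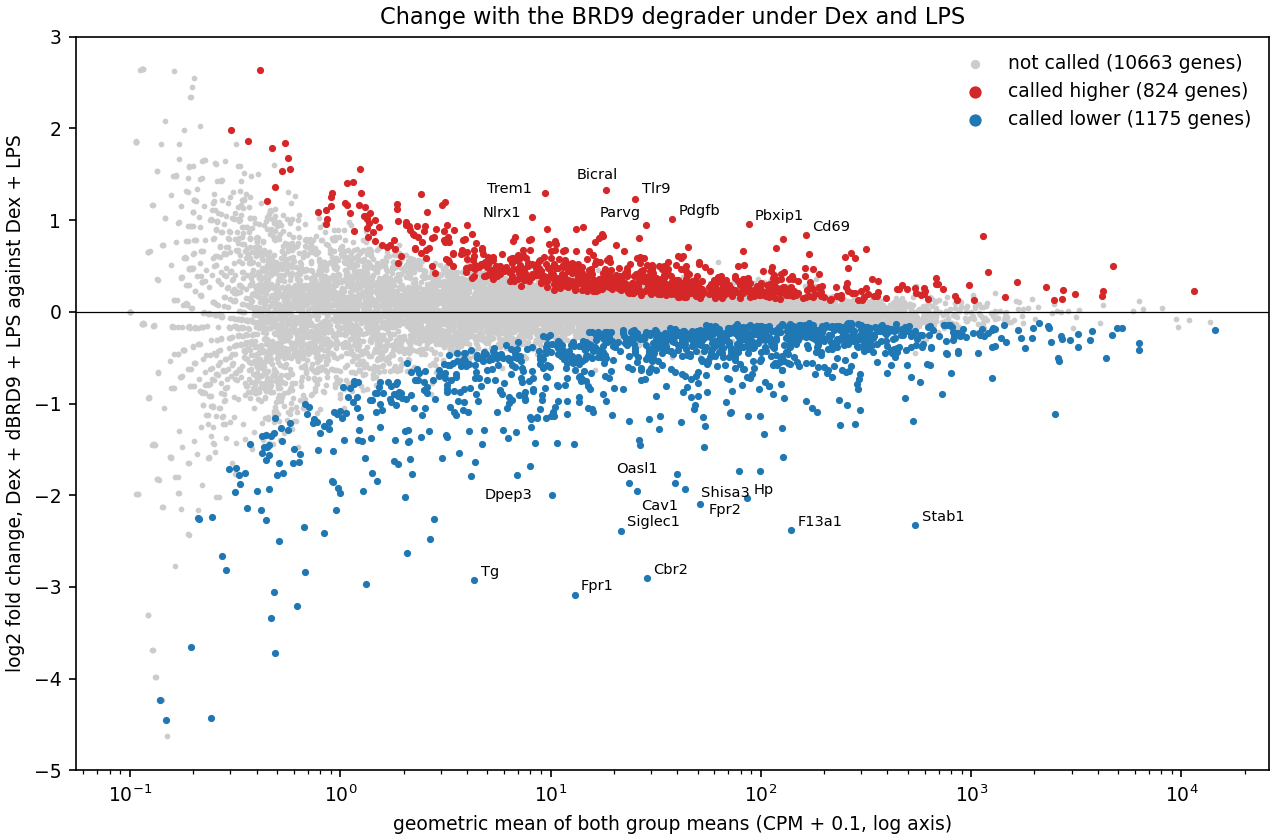
Log2 fold change of each tested gene (vertical axis) against the geometric mean of both group means in CPM (log axis), with genes called higher and lower in colour and the 12 lowest and part of the 12 highest named genes labelled. The labelled decreases reach -3.08 (Fpr1) and the labelled increases 1.33 (Bicral). 11 genes lie outside the axes.

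The 12 genes with the largest decreases, among called genes of at least 10 CPM whose libraries did not overlap between groups, included receptors and scavengers of the macrophage surface. The largest was Fpr1 (chr17:17876471-17883940 in mm10), which encodes a receptor for formylated bacterial peptides. Fpr1 stood at 42.7, 33.9 and 35.4 CPM with Dex + LPS and 4.02, 4.26 and 4.99 CPM with Dex + dBRD9 + LPS (log2 fold change -3.08, SE 0.16, adjusted p = 5.9e-12). The lowest Dex + LPS library was therefore well above the highest degrader library. Its paralog Fpr2, a formyl peptide receptor that also binds annexin A1, gave 123, 104 and 90.6 CPM with Dex + LPS and 25.98, 24.8 and 23.6 CPM with Dex + dBRD9 + LPS (log2 fold change -2.09, SE 0.10, adjusted p = 2.3e-12). Stab1 (chr14:31139013-31168641), the gene of the scavenger receptor stabilin-1, was the most abundant of the 12. It had 1006, 1322 and 1308 CPM with Dex + LPS and 222, 257 and 248 CPM with Dex + dBRD9 + LPS (log2 fold change -2.32, SE 0.081, adjusted p = 1.1e-14). The first Dex + LPS library was the lowest of its group for Stab1, and all 3 degrader libraries lay far beneath it. Siglec1, which encodes the sialic acid-binding lectin CD169, had 32.9, 61.5 and 53.6 CPM with Dex + LPS and 8.39, 10.8 and 9.03 CPM with Dex + dBRD9 + LPS (log2 fold change -2.39, SE 0.18, adjusted p = 2.9e-09). Here too the first Dex + LPS library was the lowest of its group. Genes that share sequence, such as Fpr1 and Fpr2, can exchange reads in counting, and Stab1 overlaps Nt5dc2 on the opposite strand. Whether the counting used strand is not given in the sources used here.

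Several of the other large decreases were in secreted proteins and enzymes. F13a1, the gene of the catalytic A subunit of coagulation factor XIII, had 290.4, 349 and 311 CPM with Dex + LPS and 55.4, 68.6 and 58.6 CPM with Dex + dBRD9 + LPS (log2 fold change -2.38, SE 0.10, adjusted p = 2.4e-13). Cbr2, a carbonyl reductase gene, had 95.8, 69.8 and 69.3 CPM with Dex + LPS and 12.1, 10.7 and 8.40 CPM with Dex + dBRD9 + LPS (log2 fold change -2.91, SE 0.16, adjusted p = 1.1e-11). Hp, which encodes the hemoglobin-binding plasma protein haptoglobin, had 216, 145 and 161 CPM with Dex + LPS and 45.3, 38.7 and 43.7 CPM with Dex + dBRD9 + LPS (log2 fold change -2.03, SE 0.13, adjusted p = 8.9e-11). For each of these the groups were separated by a wide gap. Dpep3, a membrane dipeptidase gene, had 23.7, 16.5 and 19.8 CPM with Dex + LPS and 5.71, 5.21 and 4.03 CPM with Dex + dBRD9 + LPS (log2 fold change -1.997, SE 0.20, adjusted p = 1.7e-07). Cav1, which encodes the membrane coat protein caveolin-1, had 46.5, 47.997 and 56.4 CPM with Dex + LPS and 11.3, 12.7 and 14.98 CPM with Dex + dBRD9 + LPS (log2 fold change -1.96, SE 0.11, adjusted p = 1.1e-11). Shisa3, an inhibitor of Wnt signaling, had 82.7, 86.2 and 83.98 CPM with Dex + LPS and 20, 23.5 and 23.05 CPM with Dex + dBRD9 + LPS (log2 fold change -1.93, SE 0.083, adjusted p = 2.4e-13), and it overlaps Atp8a1 on the opposite strand. Both groups kept to separate ranges for these, as the rule required.

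Oasl1, an interferon-induced member of the oligoadenylate synthetase family, had 85.5, 67.5 and 70.05 CPM with Dex + LPS and 19.2, 22.4 and 19.4 CPM with Dex + dBRD9 + LPS (log2 fold change -1.87, SE 0.12, adjusted p = 8.1e-11). The remaining member was Tg, the gene of the thyroid prohormone thyroglobulin, at 12.1, 10.4 and 12.1 CPM with Dex + LPS and 1.53, 1.76 and 1.25 CPM with Dex + dBRD9 + LPS (log2 fold change -2.92, SE 0.17, adjusted p = 4.5e-11). Tg encloses Sla on the opposite strand, which had 18815 reads in the 6 libraries against 844 for Tg, so the Tg value depends on how reads between both genes were divided. Sla itself was not called. All 12 genes were called lower in all 4 fits, and the call in the main fit was a condition of their choice.

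The same genes differed in where they stood before the degrader. Fpr1 averaged 0.135 ± 0.118 CPM (SD, n = 3) in vehicle-treated cells, 19.9 ± 2.16 after LPS, 37.3 ± 4.72 under Dex + LPS and 4.43 ± 0.505 once dBRD9 was added. It was thus below the level of LPS alone in the presence of the degrader. Stab1 averaged 720.2 ± 45.7, 420.4 ± 9.74, 1212 ± 179 and 242 ± 18.01 CPM in the same order. F13a1 averaged 8.38 ± 1.13 CPM in vehicle-treated cells, 8.49 ± 0.711 after LPS and 317 ± 29.9 under Dex + LPS. With the degrader it remained at 60.9 ± 6.92 CPM, above both LPS and dBRD9 + LPS (2.77 ± 0.403). Cbr2 averaged 2.49 ± 0.511, 3.05 ± 0.509, 78.3 ± 15.2 and 10.4 ± 1.85 CPM in the order vehicle, LPS, Dex + LPS and Dex + dBRD9 + LPS. The Hp averages were 1.48 ± 0.231, 3.26 ± 1.01, 174 ± 37 and 42.5 ± 3.46 CPM.

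**Figure D3:**
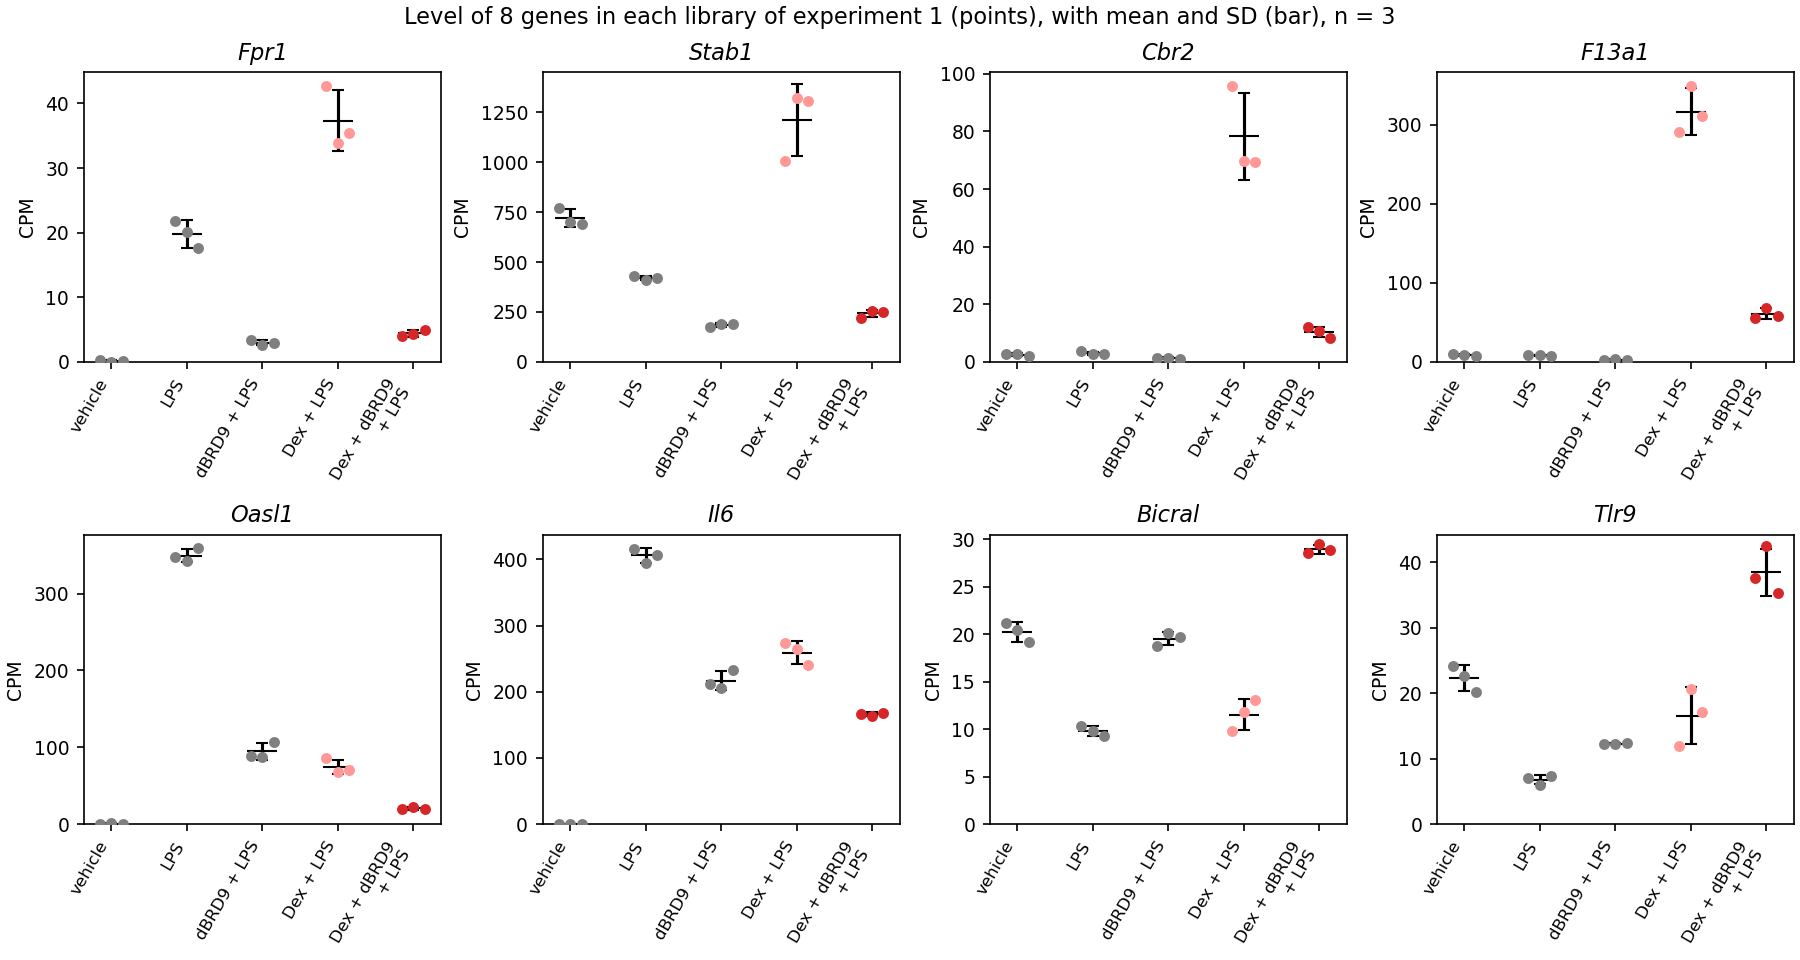
Level in CPM of Fpr1, Stab1, Cbr2, F13a1, Oasl1, Il6, Bicral and Tlr9 in each library (points) of 5 groups of experiment 1, with the mean and SD (bars, n = 3). The Dex + dBRD9 + LPS points lie below all Dex + LPS points for the first 6 genes and above them for Bicral and Tlr9.

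Increases were smaller. The largest among genes chosen by the same rule was Bicral (chr17:46798120-46858482), which encodes the BICRAL subunit of the non-canonical BAF complex. Bicral had 9.75, 11.8 and 13.02 CPM with Dex + LPS and 28.5, 29.5 and 28.8 CPM with Dex + dBRD9 + LPS (log2 fold change 1.33, SE 0.093, adjusted p = 5.2e-10), and the spread within each group was far less than the gap. Immune receptors and sensors followed. Trem1, an activating receptor that amplifies inflammatory signaling, had 5.25, 6.38 and 6.17 CPM with Dex + LPS and 16.9, 11.9 and 14.8 CPM with Dex + dBRD9 + LPS (log2 fold change 1.30, SE 0.17, adjusted p = 8.1e-06). Tlr9, the endosomal sensor of CpG DNA, had 11.96, 20.6 and 17.1 CPM with Dex + LPS and 37.6, 42.4 and 35.3 CPM with Dex + dBRD9 + LPS (log2 fold change 1.23, SE 0.12, adjusted p = 1.7e-07), with every degrader library above every library without it. Nlrx1, a mitochondrial member of the NOD-like receptor family, had 6.81, 5.003 and 5.12 CPM with Dex + LPS and 13.7, 9.92 and 11.1 CPM with Dex + dBRD9 + LPS (log2 fold change 1.03, SE 0.12, adjusted p = 2.8e-06). Cd69, a lectin that marks early activation of leukocytes, had 132, 120.1 and 115 CPM with Dex + LPS and 217, 209 and 229 CPM with Dex + dBRD9 + LPS (log2 fold change 0.84, SE 0.058, adjusted p = 5.0e-10). As the rule required, the groups of these 5 genes did not overlap.

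Pdgfb, the B chain of platelet-derived growth factor, had 24.7, 25.4 and 29.5 CPM with Dex + LPS and 54.4, 47.8 and 58.7 CPM with Dex + dBRD9 + LPS (log2 fold change 1.01, SE 0.083, adjusted p = 8.6e-09). Egr1, an immediate early transcription factor gene, had 8.24, 7.64 and 5.12 CPM with Dex + LPS and 15.4, 12.6 and 11.1 CPM with Dex + dBRD9 + LPS (log2 fold change 0.91, SE 0.14, adjusted p = 8.3e-05). Pbxip1 rose by 0.96 (SE 0.055), and Parvg, the gene of the adhesion adaptor gamma-parvin, by 0.95 (SE 0.081). Prss16, a serine protease gene, rose by 0.92 (SE 0.10) and Gtdc1, a glycosyltransferase-like gene, by 0.85 (SE 0.087). Dus2, a tRNA-modifying dihydrouridine synthase gene, rose by 0.90 (SE 0.078), but it overlaps Dpep2 and Ddx28 on the opposite strand. Dpep2 had 75780 reads in the 6 libraries against 1874 for Dus2, so few misassigned reads could move it. All 12 increases were called in all 4 fits. The call in the main fit and the separation of the groups were conditions of their choice.

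Among the genes of the degrader's own target and route, Bicral was the main change. Brd9 itself had 38.6, 36.7 and 37.6 CPM with Dex + LPS and 38.5, 33.9 and 34.5 CPM with Dex + dBRD9 + LPS, and the groups overlapped (log2 fold change -0.08, SE 0.062, adjusted p = 0.45). Of 26 tested subunits of BAF complexes, 2 were called higher and 2 lower (6.51% and 9.28% of all genes tested), with a median of 0.04 beside 0.01 over all genes. Besides Bicral these were Smarcc2 (0.16, SE 0.049), a core subunit gene, and, lower, Smarcd3 (-0.93, SE 0.31), an accessory subunit gene, and Actb (-0.50, SE 0.074), the beta-actin gene. Smarcc2 was not called without both first libraries (0.09, adjusted p = 0.22), with the length offset (0.11, adjusted p = 0.067) or with DESeq2's size factors (0.14, adjusted p = 0.058). It was also lost without the first or second Dex + LPS library or the first degrader library (adjusted p = 0.051, 0.055 and 0.13). The paralog Bicra had a log2 fold change of 0.33 (SE 0.12) and was not called. With the block 7 of the 26 were higher and 2 lower, beside 11.4% and 12.9% of all genes. With library totals alone 6 were higher and 1 lower, where 1598 of all 12662 genes were higher and 843 lower.

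No gene of the 18 tested for the cereblon ubiquitin ligase and the COP9 signalosome that regulates it was called in the edgeR fit. Over all genes 6.51% were higher and 9.28% lower there. Of the 18, 2 had an unadjusted p under 0.05. DESeq2 called 0 higher and 1 lower, where 700 of all genes were higher and 1470 lower, and limma-voom called none. The blocked fit called 1 in each direction, beside 11.4% of all genes higher and 12.9% lower. Crbn, the cereblon gene, had 26.96, 30.02 and 31.03 CPM with Dex + LPS and 30.1, 33.3 and 31.4 CPM with Dex + dBRD9 + LPS (log2 fold change 0.11, SE 0.068, adjusted p = 0.32), with overlapping groups. Brd2, the gene of a BET protein, another bromodomain reader of acetylated histones, had 563, 566 and 556 CPM with Dex + LPS and 566, 530.1 and 522 CPM with Dex + dBRD9 + LPS and was not called (log2 fold change -0.06, SE 0.05, adjusted p = 0.48).

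The glucocorticoid receptor gene and its targets Fkbp5, Tsc22d3, Per1 and Dusp1 were not called. Other receptor targets, among them Sgk1, Cebpd and Anxa1, fell. Nr3c1 had 85.8, 137 and 131 CPM with Dex + LPS and 116, 131 and 141 CPM with Dex + dBRD9 + LPS (log2 fold change 0.14, SE 0.10, adjusted p = 0.43). Fkbp5, a chaperone gene that limits receptor sensitivity, had 533, 546 and 537 CPM with Dex + LPS and 522, 534 and 522 CPM with Dex + dBRD9 + LPS (log2 fold change -0.03, SE 0.051, adjusted p = 0.73). Tsc22d3, which encodes the anti-inflammatory leucine zipper protein GILZ, had 177, 168 and 149 CPM with Dex + LPS and 149.7, 166 and 144 CPM with Dex + dBRD9 + LPS (log2 fold change -0.10, SE 0.073, adjusted p = 0.4). For these 3 genes the libraries overlapped. Per1, a clock gene and direct receptor target, had 81.4, 86.8 and 94.4 CPM with Dex + LPS and 89.7, 88.1 and 90.6 CPM with Dex + dBRD9 + LPS (log2 fold change 0.03, SE 0.057, adjusted p = 0.78). Dusp1, a phosphatase that switches off MAP kinases, had 638, 651 and 638 CPM with Dex + LPS and 658, 606 and 619 CPM with Dex + dBRD9 + LPS (log2 fold change -0.03, SE 0.046, adjusted p = 0.7), again with overlap. A p above the threshold does not show that the levels were equal.

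Of 36 tested glucocorticoid receptor targets, 11 were called lower and 2 higher, beside 9.28% lower and 6.51% higher over all genes. The list median was -0.09, and without both first libraries 16 were lower (10% of all genes) and 4 higher (7.19%). Fpr1 and Stab1 belong to this list, which like all 23 lists was chosen with earlier results of these data known. In experiment 1 Dex raised both under LPS (log2 fold change 0.91 and 1.53 against LPS). Under IFNg + LPS in experiment 2, Dex lowered Fpr1 (-0.86, adjusted p = 0.018 in edgeR) and Stab1 was not called (0.25, adjusted p = 0.33). Ctla2b, a cysteine protease inhibitor gene, had 96.1, 78.8 and 76.4 CPM with Dex + LPS and 37.5, 33.7 and 34.4 CPM with Dex + dBRD9 + LPS (log2 fold change -1.25, SE 0.11, adjusted p = 1.3e-08). Tsc22d1, a leucine zipper gene of the GILZ family, had 455, 418 and 409 CPM with Dex + LPS and 191, 183 and 177 CPM with Dex + dBRD9 + LPS (log2 fold change -1.22, SE 0.06, adjusted p = 2.3e-12). Both pairs of groups were apart. The kinase gene Sgk1 fell by 1.10 on the log2 scale (SE 0.068), the adhesion gene Tns1 had -0.90 (SE 0.089) and the transcription factor gene Cebpd -0.68 (SE 0.083). Anxa1, which encodes the anti-inflammatory ligand annexin A1, was lower by a smaller amount (-0.33, SE 0.046). The 2 that rose were Lcn2, the gene of the iron-sequestering protein lipocalin-2 (0.68, SE 0.088), and Sesn1 (0.34, SE 0.089).

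Inflammatory cytokine and chemokine genes were lower more often than higher, with large differences among members. Of 37 tested, 17 were called lower (45.9%, beside 9.28% of all genes) and 4 higher (10.8%, beside 6.51%), with a median of -0.21. Il6, the gene of interleukin-6, had 273, 264 and 240.03 CPM with Dex + LPS and 166, 164 and 169 CPM with Dex + dBRD9 + LPS (log2 fold change -0.64, SE 0.08, adjusted p = 7.6e-06). Il12b, which encodes a subunit shared by interleukin-12 and interleukin-23, had 41.4, 35.9 and 36.6 CPM with Dex + LPS and 35.9, 36.04 and 36.9 CPM with Dex + dBRD9 + LPS (log2 fold change -0.07, SE 0.076, adjusted p = 0.62), with overlap. Il1b had 1471, 1335 and 1309 CPM with Dex + LPS and 1369, 1352 and 1407 CPM with Dex + dBRD9 + LPS (log2 fold change 0.00, SE 0.054, adjusted p = 0.97), so that Il6 separated the groups and Il1b did not. Tnf had 4979, 5150.5 and 5199 CPM with Dex + LPS and 4164, 4396 and 4325 CPM with Dex + dBRD9 + LPS (log2 fold change -0.25, SE 0.045, adjusted p = 0.00035). Nos2, the inducible nitric oxide synthase gene, had 25.1, 27.6 and 25.9 CPM with Dex + LPS and 19.96, 18.7 and 26.6 CPM with Dex + dBRD9 + LPS (log2 fold change -0.27, SE 0.11, adjusted p = 0.084). Nos2 was called in the blocked fit, at adjusted p = 0.033.

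Among the chemokines, Cxcl10, an interferon-induced ligand of CXCR3, had 433, 356 and 341 CPM with Dex + LPS and 199, 219.7 and 235 CPM with Dex + dBRD9 + LPS (log2 fold change -0.79, SE 0.091, adjusted p = 1.4e-06). Cxcl3, a neutrophil-attracting ligand of CXCR2, had 206, 183 and 196 CPM with Dex + LPS and 79.9, 78.4 and 85.9 CPM with Dex + dBRD9 + LPS (log2 fold change -1.26, SE 0.069, adjusted p = 1.1e-11). In both, all degrader libraries lay below the others. Ccl17, a ligand of CCR4, had 24.8, 14.6 and 17.4 CPM with Dex + LPS and 10.5, 9.27 and 8.98 CPM with Dex + dBRD9 + LPS (log2 fold change -0.98, SE 0.17, adjusted p = 0.00031), and Ccl7, a ligand of CCR2, fell by 0.88 (SE 0.088). Ccl2, the principal CCR2 ligand, was not called: 403, 325 and 303 CPM with Dex + LPS and 353, 346 and 339 CPM with Dex + dBRD9 + LPS (log2 fold change 0.01, SE 0.075, adjusted p = 0.95). Csf3, the granulocyte colony-stimulating factor gene, had -0.97 (SE 0.10), and Il10, the gene of an anti-inflammatory cytokine, -2.16 (SE 0.40) from a mean of 1.77 CPM. The members that rose were Ccl22, a second CCR4 ligand gene (0.67, SE 0.12), Il1a (0.41, SE 0.089), Ccl3 (0.14, SE 0.042) and Csf1 (0.14, SE 0.048). Ccl17 and Ccl22 thus moved in opposite directions.

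NF-κB subunits, inhibitors and targets gave 11 lower (36.7%, beside 9.28% of all genes) and 3 higher (10%, beside 6.51%) of 30, with a median of -0.08. The adhesion molecule gene Vcam1 had 61.8, 69.4 and 61.2 CPM with Dex + LPS and 33.9, 34.7 and 32.1 CPM with Dex + dBRD9 + LPS (log2 fold change -0.93, SE 0.082, adjusted p = 2.5e-08). Ptgs2, the gene of the prostaglandin-forming enzyme COX-2, had 222, 297 and 321 CPM with Dex + LPS and 156, 170.2 and 187 CPM with Dex + dBRD9 + LPS (log2 fold change -0.71, SE 0.10, adjusted p = 3.1e-05). Traf1, a signaling adaptor, fell by 0.58 (SE 0.057) and Cflar, a caspase-8 inhibitor, by 0.38 (SE 0.096). Cflar levels overlapped between groups, and its call was lost without the second Dex + LPS library (-0.28, adjusted p = 0.051). Among the subunits, Rela was lower (-0.28, SE 0.049) and Relb higher (0.22, SE 0.047), while Nfkb1, Nfkb2 and Rel were not called. Immediate early transcription factors, which respond within minutes of a signal, split into 5 higher (23.8%, beside 6.51% of all genes) and 4 lower (19%, beside 9.28%) of 21. Jun (0.40, SE 0.078), the stress-response gene Ier3 (0.51, SE 0.078) and Nr4a3 (0.78, SE 0.17) rose with Egr1. Its relative Egr2 fell (-0.37, SE 0.067), as did Nr4a1 (-0.86, SE 0.14).

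The sequences below, the 250 bases before the start of 6 genes that fell, are shown for their matches to elements known from the interferon, NF-κB and AP-1 branches of the LPS response. They come from RefSeq on GRCm38.p6 and are written 5′ to 3′ on the gene's strand. Capitals mark exact matches, on either strand, to the interferon-stimulated response element (GAAA and GAAA with 2 free bases between), the NF-κB element (GGGA and TTTCC with 1 free base between) or the AP-1 element (TGANTCA, N being any base). They lie at chr11:58199306-58199555, plus strand (Igtp), chr11:58214727-58214976, plus strand (Irgm2), chr11:48871421-48871670, minus strand (Irgm1), chr5:92348890-92349139, minus strand (Cxcl10), chr5:30012864-30013113, plus strand (Il6) and chr5:90785851-90786100, plus strand (Cxcl3).
Igtp: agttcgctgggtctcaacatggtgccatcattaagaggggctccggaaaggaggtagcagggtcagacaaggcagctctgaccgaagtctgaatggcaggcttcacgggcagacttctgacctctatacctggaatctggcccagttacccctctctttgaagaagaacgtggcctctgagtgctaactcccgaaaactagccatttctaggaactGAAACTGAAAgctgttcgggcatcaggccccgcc
Irgm2: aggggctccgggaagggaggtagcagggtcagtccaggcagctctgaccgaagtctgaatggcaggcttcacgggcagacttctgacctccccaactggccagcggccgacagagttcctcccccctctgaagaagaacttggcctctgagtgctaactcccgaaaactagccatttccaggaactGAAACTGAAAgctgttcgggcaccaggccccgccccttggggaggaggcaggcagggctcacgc
Irgm1: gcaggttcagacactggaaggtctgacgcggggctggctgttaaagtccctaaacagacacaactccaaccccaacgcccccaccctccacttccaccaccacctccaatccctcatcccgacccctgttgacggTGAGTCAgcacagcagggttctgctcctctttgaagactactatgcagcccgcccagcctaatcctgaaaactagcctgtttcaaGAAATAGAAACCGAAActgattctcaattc
Cxcl10: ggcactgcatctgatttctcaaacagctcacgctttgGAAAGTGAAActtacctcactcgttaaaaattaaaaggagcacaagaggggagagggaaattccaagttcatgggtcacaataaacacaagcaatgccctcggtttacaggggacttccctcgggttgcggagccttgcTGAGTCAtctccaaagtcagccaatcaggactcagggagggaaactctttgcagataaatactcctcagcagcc
Il6: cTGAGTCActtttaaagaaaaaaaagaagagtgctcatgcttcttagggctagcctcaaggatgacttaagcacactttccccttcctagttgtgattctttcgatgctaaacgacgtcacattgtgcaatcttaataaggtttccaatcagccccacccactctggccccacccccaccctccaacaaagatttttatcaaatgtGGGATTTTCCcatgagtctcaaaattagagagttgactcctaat
Cxcl3: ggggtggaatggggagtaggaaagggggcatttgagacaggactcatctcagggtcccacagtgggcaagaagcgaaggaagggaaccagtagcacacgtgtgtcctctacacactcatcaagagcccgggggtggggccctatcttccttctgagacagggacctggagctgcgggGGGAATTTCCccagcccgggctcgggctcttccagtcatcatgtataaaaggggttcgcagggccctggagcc
The neighbouring GTPase genes Igtp and Irgm2 share an identical run of 55 bases here. In Irgm1 a pair of interferon element matches overlaps.

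Over promoter windows of 250 bases before to 50 bases after the start, 12265 windows of 9606 tested genes, 3.32% held the interferon element, 0.489% the NF-κB element, 5.4% the AP-1 element and 0.261% the glucocorticoid response element (GNACA and TGTNC with 3 free bases between). Of 377 windows of genes called lower by at least 1.5-fold, 8.49% held the interferon element, 2.92% the NF-κB element, 11.1% the AP-1 element and 0.796% the glucocorticoid element. In 156 windows of genes called higher by at least 1.5-fold the shares were 3.21%, 0.641%, 8.33% and 0%. These are matches of letters, described without a test, and windows of one gene can overlap. They were found for 287 of 395 genes called lower and 116 of 153 called higher.

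Type I interferon-induced genes were called lower far more often than higher. Of 56 tested, 24 were called lower and 1 higher, beside 9.28% and 6.51% over all genes, with a median of -0.24 (-0.13 without both first libraries). Mx1, an antiviral dynamin-like GTPase gene, had 97.8, 96.5 and 91.7 CPM with Dex + LPS and 36.8, 51.9 and 56.1 CPM with Dex + dBRD9 + LPS (log2 fold change -0.99, SE 0.14, adjusted p = 2.5e-05). Mx2 fell by 0.74 (SE 0.16) and Ifi27l2a, a small mitochondrial protein gene, by 0.72 (SE 0.12). Ifit1, Isg15 and Rsad2, widely used interferon markers, had -0.66, -0.51 and -0.42 (SE 0.094, 0.092 and 0.099). Ifit3b was the only member called higher (0.58, SE 0.19), while its near-identical neighbour Ifit3 was not called at -0.49 (SE 0.19), so that their reads may have been divided between them. Stat2 (-0.39) and Irf9 (-0.24), which encode subunits of the interferon-activated factor ISGF3, were lower.

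Interferon-inducible GTPases, which attack the vacuoles of intracellular pathogens, had 7 of 14 members lower (50%, beside 9.28% of all genes) and 2 higher (14.3%, beside 6.51%), with a median of -0.53. Ifi47 had 62.2, 45.7 and 44.2 CPM with Dex + LPS and 18.6, 23.002 and 21.3 CPM with Dex + dBRD9 + LPS (log2 fold change -1.28, SE 0.12, adjusted p = 1.1e-07). Irgm1 had 124, 110.3 and 109 CPM with Dex + LPS and 67.9, 74.9 and 81.9 CPM with Dex + dBRD9 + LPS (log2 fold change -0.61, SE 0.082, adjusted p = 1.1e-05), and Igtp and Irgm2, which overlap each other on the same strand, fell by 0.61 and 0.57 (SE 0.11 and 0.10). These 4, named for their large called changes, did not overlap between groups. The near-identical paralogs Tgtp1 and Tgtp2, at means of 0.409 and 7.54 CPM in the Dex + LPS libraries, had -1.97 and -1.79. The call of Tgtp1 was lost without the second Dex + LPS library or the second or the third degrader library (adjusted p = 0.14, 0.16 and 0.14). Gbp7 (0.39, SE 0.11) and Gbp9 (0.40, SE 0.12) of the guanylate-binding family were higher.

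Genes that induce interferon beta or receive it showed no single direction, with 5 higher (26.3%, beside 6.51% of all genes) and 3 lower (15.8%, beside 9.28%) of 19 and a median of -0.02 (0.05 with library totals alone). Ifnb1, the interferon beta gene, was scarce: 0.26, 0.825 and 0.503 CPM with Dex + LPS and 0.23, 0.041 and 0.048 CPM with Dex + dBRD9 + LPS (log2 fold change -2.14, SE 0.58, adjusted p = 0.016). Its call was lost without the second Dex + LPS library (adjusted p = 0.073) or without the second or the third degrader library (adjusted p = 0.08 and 0.066). Socs1, a feedback inhibitor of JAK kinases, fell by 0.66 (SE 0.091) and the transcription factor gene Irf1 by 0.42 (SE 0.05). The kinase gene Tyk2 rose by 0.59 (SE 0.057), and Tlr4, the LPS receptor gene, by 0.39 (SE 0.10) with overlapping groups. The Tlr4 call was lost without the first Dex + LPS library (0.22, adjusted p = 0.055), or without the second or the third degrader library (adjusted p = 0.055 and 0.095). Antigen presentation genes had 6 of 25 lower (24%, beside 9.28% of all genes) and none higher (beside 6.51%), with a median of -0.10 that became 0.04 without both first libraries. The class II gene H2-Ab1 had 20.98, 15.3 and 16.2 CPM with Dex + LPS and 11.1, 10.6 and 10.6 CPM with Dex + dBRD9 + LPS (log2 fold change -0.70, SE 0.12, adjusted p = 0.00036). Ciita, the master regulator of class II genes, had -0.81 (SE 0.22), Ctss, a protease that trims the class II invariant chain, -0.40 (SE 0.046), and Cd74, that chain's gene, -0.31 (SE 0.096). Without both first libraries Cd74 had -0.15 (adjusted p = 0.13), and its call was also lost without the first Dex + LPS library (-0.13, adjusted p = 0.17), the second or the third degrader library (adjusted p = 0.1 and 0.07) or with library totals alone (adjusted p = 0.078).

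Genes of macrophage state and surface function were next. Of 28 macrophage identity genes, 7 were lower (25%, beside 9.28% of all genes) and 1 higher (3.57%, beside 6.51%), and the median was -0.16. With the block 12 were lower and 2 higher, beside 12.9% and 11.4% of all genes. Without both first libraries 9 were lower and 5 higher, beside 10% and 7.19%. Fcgr1, a high-affinity antibody receptor gene, had 13.2, 10.1 and 9.18 CPM with Dex + LPS and 5.10, 6.07 and 7.11 CPM with Dex + dBRD9 + LPS (log2 fold change -0.84, SE 0.16, adjusted p = 0.00066). Aif1, an actin-binding protein gene, fell by 0.65 (SE 0.15), the lipoprotein gene Apoe by 0.42 (SE 0.07) and the pore-forming Mpeg1 by 0.30 (SE 0.061). Ccr2, the monocyte chemokine receptor gene, fell by 2.24 (SE 0.69) from a mean of 0.28 CPM. Csf1r, the receptor for the growth factor of these cells, was slightly higher (0.13, SE 0.04), and Adgre1, Cd68, Itgam and Spi1 were not called. In bulk RNA, fewer cells of a type and less RNA per cell cannot be told apart.

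Alternative activation markers, genes raised by interleukin-4 in macrophages, had 8 of 16 lower (50%, beside 9.28% of all genes) and 2 higher (12.5%, beside 6.51%), with a median of -0.30. The lectin gene Clec10a had 17.2, 11.8 and 12.02 CPM with Dex + LPS and 5.36, 5.002 and 4.90 CPM with Dex + dBRD9 + LPS (log2 fold change -1.43, SE 0.18, adjusted p = 4.2e-06). Tgm2, a transglutaminase gene, had 63.1, 63.4 and 61.9 CPM with Dex + LPS and 25.4, 26.6 and 30.1 CPM with Dex + dBRD9 + LPS (log2 fold change -1.20, SE 0.072, adjusted p = 4.9e-11). Msr1, a scavenger receptor gene, and Chil3, a chitinase-like gene, had -0.94 and -0.60 (SE 0.088 and 0.094). The mannose receptor gene Mrc1 was lower by less (-0.37, SE 0.098). The groups were separate in Clec10a, Tgm2, Msr1 and Chil3, which were named for their large called changes.

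Phagocytosis, efferocytosis and complement genes had 9 of 27 lower (33.3%, beside 9.28% of all genes) and 3 higher (11.1%, beside 6.51%), with a median of -0.10, and Stab1 is among them. Fcgr4, an activating antibody receptor gene, had 16.4, 11.1 and 10.6 CPM with Dex + LPS and 6.48, 5.90 and 5.91 CPM with Dex + dBRD9 + LPS (log2 fold change -1.06, SE 0.16, adjusted p = 5.4e-05). C3, the central complement component, moved the other way, with 780.1, 913 and 880.4 CPM with Dex + LPS and 1449, 1591 and 1509 CPM with Dex + dBRD9 + LPS (log2 fold change 0.82, SE 0.056, adjusted p = 4.0e-10). The properdin gene Cfp (0.28) and the receptor gene C3ar1 (0.25) were also higher, while C5ar1 was lower (-0.37) and C1qa, C1qb and C1qc were not called.

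Matrix proteases and adhesion genes were lower in 14 of 26 (53.8%, beside 9.28% of all genes) and higher in 2 (7.69%, beside 6.51%), with a median of -0.41. Mmp14, a membrane-bound collagenase gene, had 175, 186 and 182 CPM with Dex + LPS and 52.2, 56.2 and 53.9 CPM with Dex + dBRD9 + LPS (log2 fold change -1.74, SE 0.081, adjusted p = 9.1e-13). Serpinb2, an inhibitor of plasminogen activators, had 15.3, 18.1 and 18.8 CPM with Dex + LPS and 6.63, 5.25 and 7.54 CPM with Dex + dBRD9 + LPS (log2 fold change -1.43, SE 0.13, adjusted p = 2.4e-08). Spp1, the osteopontin gene, had 3818, 3511 and 3746 CPM with Dex + LPS and 1686, 1698 and 1734 CPM with Dex + dBRD9 + LPS (log2 fold change -1.11, SE 0.046, adjusted p = 2.3e-13). In these 3, named for their large called changes, the highest degrader library was below the lowest library without it. Mmp8, a neutrophil collagenase gene, fell by 1.02 (SE 0.092) and Mmp13 had -0.97 (SE 0.075). The summed neutrophil and stromal markers were also lower (46 to 51.5 against 79.6 to 83.4 CPM and 16 to 18 against 39.4 to 49 CPM), and their part in this list was not tested. The neutrophil sum came largely from Mmp8 itself, and the stromal sum mostly from Pdgfrb. Of the neutrophil markers 2 of 6 tested were called lower, and of the stromal markers 1 of 3. Lysosomal genes had 11 of 31 lower (35.5%, beside 9.28% of all genes) and 1 higher (3.23%, beside 6.51%) with a median of -0.08. With library totals alone 8 were lower and 2 higher, with a median of -0.01, where 843 of all genes were lower and 1598 higher. The phosphatase gene Acp5 fell by 1.15 (SE 0.086), and the proton pump subunit gene Atp6v0d2 and the protease gene Ctsl each by 0.45 (SE 0.047 and 0.046). Tfeb, a regulator of lysosomal genes, was the 1 member higher (0.27, SE 0.092).

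Among metabolic and growth genes, LXR targets, which export cholesterol and remodel lipids, had 7 of 18 lower (38.9%, beside 9.28% of all genes) and 2 higher (11.1%, beside 6.51%). Their median was -0.05 (0.01 with library totals alone). Nr1h3, which encodes LXR alpha itself, had 112, 98.9 and 103 CPM with Dex + LPS and 51.8, 46.5 and 47.6 CPM with Dex + dBRD9 + LPS (log2 fold change -1.10, SE 0.075, adjusted p = 3.7e-10). The apolipoprotein gene Apoc2 fell by 1.09 (SE 0.17), the lipid droplet gene Plin2 by 0.76 (SE 0.047) and the phospholipid transfer gene Pltp, which overlaps Ctsa on the opposite strand, by 0.73 (SE 0.055). The cholesterol transporters Abca1 and Abcg1 were not called (-0.04 and -0.06). Cholesterol synthesis genes had 4 of 24 lower (16.7%, beside 9.28% of all genes) and none higher (beside 6.51%), with a median of -0.20. Fdps of the mevalonate pathway and Insig1, which retains the regulator SREBP, had -0.55 and -0.39 (SE 0.095 and 0.058). In the blocked fit 9 were lower, beside 12.9% of all genes, and 8 without both first libraries, beside 10%. DESeq2 also called 8 lower, where 1470 of all genes were lower.

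Cell cycle and DNA replication genes had 14 of 41 lower (34.1%, beside 9.28% of all genes) and 1 higher (2.44%, beside 6.51%), with a median of -0.25. Ccnd1, the cyclin D1 gene, had 21.02, 25.2 and 26 CPM with Dex + LPS and 11.95, 13.8 and 13.1 CPM with Dex + dBRD9 + LPS (log2 fold change -0.90, SE 0.098, adjusted p = 6.5e-07). Mcm6 of the replicative helicase fell by 0.44 (SE 0.073) and the sliding clamp gene Pcna by 0.40 (SE 0.056). The mitotic cyclin gene Ccnb2 rose by 0.39 (SE 0.11), a call lost without both first libraries (0.31, adjusted p = 0.076), the third Dex + LPS library (adjusted p = 0.074) or the first degrader library (adjusted p = 0.097). The proliferation genes Mki67 and Top2a were not called.

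NRF2 targets, genes of the antioxidant response, had the highest median of the 23 lists (0.13), with 7 higher (33.3%, beside 6.51% of all genes) and 3 lower (14.3%, beside 9.28%) of 21. G6pdx, which supplies NADPH and overlaps Ikbkg, had 220.3, 193 and 198 CPM with Dex + LPS and 325, 309 and 291 CPM with Dex + dBRD9 + LPS (log2 fold change 0.60, SE 0.051, adjusted p = 1.7e-08). Sqstm1, the autophagy receptor gene p62, had 4089.8, 3928 and 3876 CPM with Dex + LPS and 5418, 5860.3 and 5577 CPM with Dex + dBRD9 + LPS (log2 fold change 0.50, SE 0.045, adjusted p = 2.9e-08). Both genes separated the groups. Gclm of glutathione synthesis and Srxn1, the sulfiredoxin gene, each rose by 0.31 (SE 0.061 and 0.059), while Nqo1 was lower (-0.51, SE 0.11). Genes of the unfolded protein and integrated stress responses had 11 of 25 lower (44%, beside 9.28% of all genes) and 2 higher (8%, beside 6.51%), with a median of -0.17. The transcription factor gene Atf5, which overlaps Il4i1, fell by 0.88 (SE 0.10), the serine synthesis gene Psat1 by 0.84 (SE 0.093), the phosphatase subunit gene Ppp1r15a by 0.55 (SE 0.063) and the asparagine synthetase gene Asns by 0.48 (SE 0.10).

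Glycolysis and HIF1 targets showed 4 lower (14.8%, beside 9.28% of all genes) and 2 higher (7.41%, beside 6.51%) of 27, with a median of -0.02 (0.05 with library totals alone). Ndrg1, a stress-responsive gene, fell by 0.29 (SE 0.074) and Pfkp, a phosphofructokinase gene, by 0.19 (SE 0.045), while Vegfa, the vascular growth factor gene, had -0.67 (SE 0.18). Of 32 oxidative phosphorylation genes only Uqcrfs1 of complex III was called (-0.20, SE 0.052), beside 9.28% of all genes lower and 6.51% higher. Without both first libraries 3 were higher and none lower, beside 7.19% and 10% of all genes. The median turned from -0.05 to 0.02.

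**Figure D4:**
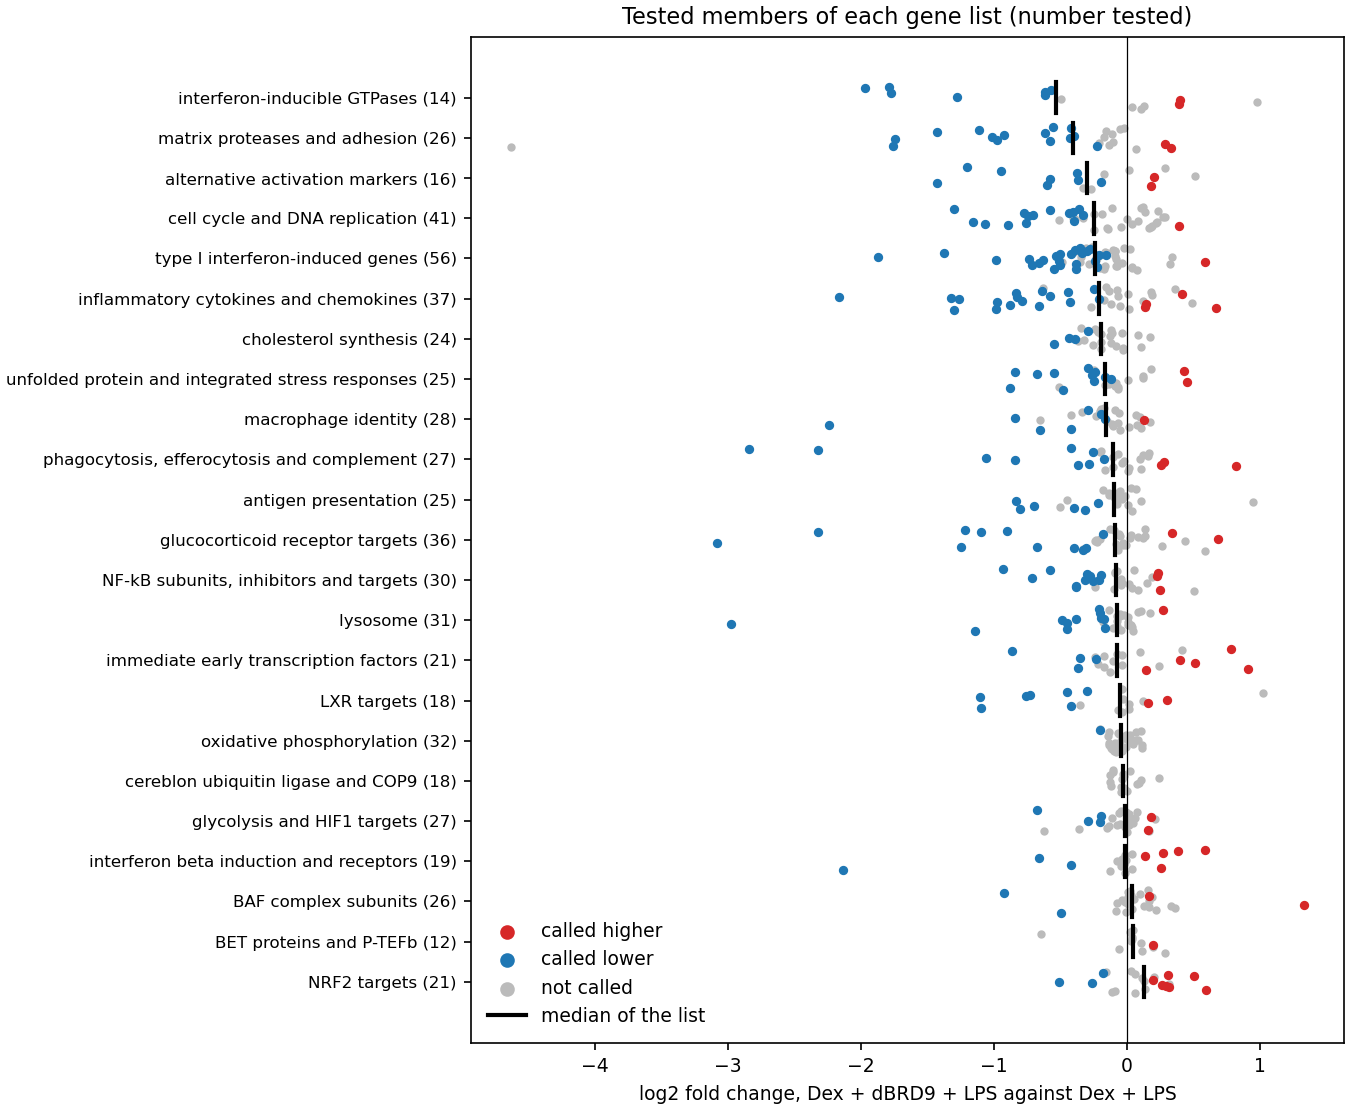
Log2 fold change of every tested member (points) of 23 gene lists, with the median of each list (black bar) and the number tested. The medians run from -0.53 for the interferon-inducible GTPases to 0.13 for NRF2 targets, and most lists hold members on both sides of 0.

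Genes were also grouped by how LPS and Dex change them in other libraries. Of 1872 genes that LPS raised at least 2-fold over vehicle, 452 were lower with the degrader (24.1%, beside 9.28% of all genes) and 117 higher (6.25%), with a median of -0.10. Among the 2300 genes that LPS lowered at least 2-fold, 122 were lower (5.3%) and 206 higher (8.96%, beside 6.51%), with a median of 0.09. Classes of Dex response were taken from experiment 2, so that they share no library with the comparison. Of 512 tested genes that Dex raised at least 2-fold under IFNg + LPS, 94 were lower with the degrader (18.4%) and 43 higher (8.4%). At least 2-fold decreases numbered 18 of the 512 there and increases 0, beside 1.52% and 0.332% of all genes. Of 293 genes that Dex lowered, 75 were lower (25.6%) and 20 higher (6.83%), with a median of -0.18. Genes on either side of the Dex response thus had larger shares of decreases than all genes tested. Without both first libraries the shares lower were 27.8% of LPS-raised, 5.39% of LPS-lowered, 22.7% of Dex-raised and 24.9% of Dex-lowered genes, beside 10% of all genes.

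The same degrader without Dex, dBRD9 + LPS against LPS, shares no library with the comparison. It gave 841 genes higher (6.64%) and 1262 lower (9.97%). Of the 1175 genes lower with Dex 610 were also lower without it, 51.9% of one list and 48.3% of the other, and 5 were called higher there. Of the 824 genes higher with Dex 294 were higher without it (35.7% and 35%), and 11 were lower. Fpr1 had -2.75 without Dex, Fpr2 -2.03, Oasl1 -1.89 and Bicral 0.99, beside -3.08, -2.09, -1.87 and 1.33 with it. None of the 4 was called in the test of the difference.

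The difference between both effects, the interaction of Dex and dBRD9, was called for 429 genes (3.39%), 230 higher with Dex (1.82%) and 199 lower (1.57%). The count was sensitive to single libraries: 890 without the first Dex + LPS library, 266 without the third LPS library, 269 without the first LPS library and 271 without the second Dex + dBRD9 + LPS library. It was 927 with the block, 949 without both first libraries and 714 with the length offset. The balance of directions also moved. With the block 510 were higher and 417 lower, but 462 and 487 without both first libraries. With the length offset it was 311 and 403, and with DESeq2's size factors 190 and 238. Stab1 fell further in the presence of Dex (-2.32 against -1.19, difference -1.14, SE 0.11, adjusted p = 3.1e-06). So did F13a1, at -2.38 against -1.62 (adjusted p = 0.042), where the level without Dex was near 8.49 CPM. Ccl17 changed direction: it was higher with the degrader in the absence of Dex (0.97) and lower in its presence (-0.98), with a difference of -1.96 (SE 0.23, adjusted p = 1.8e-05). Its means were 29.1 CPM with LPS, 56.96 with dBRD9 + LPS, 18.9 with Dex + LPS and 9.59 with Dex + dBRD9 + LPS.

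Among the largest positive differences, Tnfsf10, which encodes the death ligand TRAIL, had 0.69 with Dex and -0.94 without (difference 1.63, adjusted p = 0.00039). Its rise under Dex was not called without the third Dex + LPS library or the second or the third degrader library (adjusted p = 0.093, 0.12 and 0.064). Tlr8, an endosomal receptor gene, had 0.36 and -1.07 (1.42, adjusted p = 0.00062). Saa3, an acute phase gene, had -0.30 and -1.71 (1.41, adjusted p = 8.6e-08). Cd69 and Egr1, which rose with Dex, had 0.08 and 0.00 without it. Lists differed in either direction. Over all genes 9.97% were lower and 6.64% higher without Dex, and 9.28% and 6.51% with it. The difference was called toward higher with Dex for 1.82% of all genes and toward lower for 1.57%. Of 56 type I interferon-induced genes, 49 were lower without Dex (median -0.56) against 24 with it (median -0.24), and the difference itself was called for 15, each less negative or higher with Dex. Of 21 NRF2 targets, 8 were lower and 2 higher without Dex, and 3 lower and 7 higher with it, and the difference was called for 7, in each case toward higher with Dex. Of 26 matrix and adhesion genes the difference was called for 8 toward lower and 2 toward higher.

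**Figure D5:**
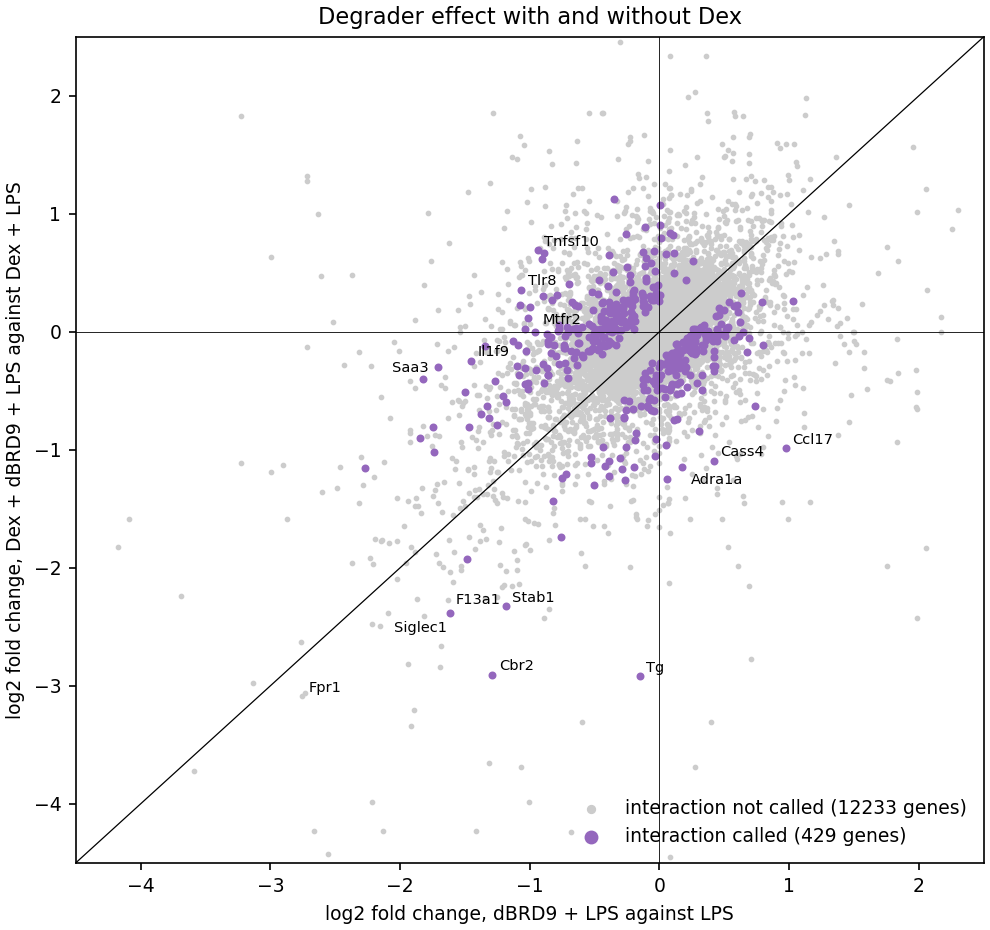
Log2 fold change of each tested gene with the degrader under Dex + LPS (vertical axis) against that under LPS without Dex (horizontal axis), with genes called in the interaction in colour and the named extremes labelled. Most coloured genes lie away from the diagonal by less than 2-fold, Ccl17 lies at -0.98 and 0.97, and 29 genes lie outside the axes.

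Experiment 2 repeated the addition of dBRD9 to Dex in 2 libraries against 2, with IFNg beside LPS. There 31 genes were higher (0.233%) and 155 lower (1.16%). At least 2-fold increases numbered 3 (0.0225%) and decreases 62 (0.466%), and both the number of libraries and the stimulus differ from the comparison above. Of 131 genes lower there and tested in both experiments, 76 (58%) were lower in experiment 1, which is 6.71% of the 1133 lower there, and 7 of the 1133 were called higher in experiment 2. Of 29 genes higher in experiment 2, 8 (27.6%) were also higher in experiment 1, 0.984% of 813, and 7 were lower in experiment 1. Of the 813, 5 were called lower in experiment 2. Over all genes called lower in experiment 1, 59.2% had a negative sign in experiment 2, beside 46.8% of all genes. The count rested on single libraries, from 33 without the first Dex + dBRD9 + IFNg + LPS library and 37 without the second, and 65 without the first Dex + IFNg + LPS library, to 180 without the second.

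Of the genes named above, Fpr1 had 4.29 and 4.57 CPM with Dex + IFNg + LPS and 1.64 and 1.07 CPM with the degrader added (log2 fold change -1.70, adjusted p = 0.0074). Fpr2 had -1.47 (adjusted p = 9.5e-05), Hp -1.43 (adjusted p = 0.014), Oasl1 -0.99 (adjusted p = 0.00079) and Nr1h3 -0.95 (adjusted p = 0.0061), all called lower. Mmp14 had 52.2 and 54.98 CPM with Dex + IFNg + LPS and 13.4 and 15.1 CPM with the degrader added (-1.91, adjusted p = 2.6e-06), the second largest decrease by the rule for named genes after Tgtp1 (-2.25). Bicral was the largest increase, at 8.78 and 5.25 CPM with Dex + IFNg + LPS and 14.2 and 13.997 CPM with the degrader added (1.01, adjusted p = 0.046). The other named increases there were Hmox1, the heme oxygenase gene (0.78), the stress kinase-like gene Trib3 (0.77), Sqstm1 (0.77) and Tmem205 (0.69). Stab1 was not called there, at 632 and 475 CPM with Dex + IFNg + LPS and 413 and 428 CPM with the degrader added (-0.40, adjusted p = 0.28), and neither were Siglec1 (-0.35), F13a1 (0.04) and Cbr2 (0.29). The difference between the experiments was not tested. The Bicral call was lost without the first or second degrader library (adjusted p = 0.32 and 0.26) or the second Dex + IFNg + LPS library (0.68, adjusted p = 0.19), and with library totals alone (adjusted p = 0.066), DESeq2's size factors (adjusted p = 0.058) or a minimum count of 50 (adjusted p = 0.06). Trib3 was lost without any library but the second Dex + IFNg + LPS library (adjusted p = 0.12 to 0.19) and Tmem205 without any of the 4 (adjusted p = 0.09 to 0.34).

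Markers of other cell types were low or absent, with some differences between groups whose part in the results was not tested. Summed over the 10 macrophage markers the level was 28300 to 28500 CPM with Dex + LPS and 24800 to 27800 CPM with Dex + dBRD9 + LPS, with Csf1r called higher and Lyz2 and Fcgr1 lower. The 10 neutrophil markers summed to 79.6 to 83.4 CPM and 46 to 51.5 CPM, largely from Mmp8, and Elane and Mpo had no reads. Of the 6 tested, Mmp8 and Camp were lower. The 10 stromal markers summed to 39.4 to 49 CPM and 16 to 18 CPM, mostly from Pdgfrb, the 1 of 3 tested that was lower (-1.40, SE 0.10), while Col1a2 and Lum had no reads. The 10 dendritic cell markers summed to 231 to 257 CPM and 254 to 283 CPM, mostly Itgax, which macrophages also express, with 1 of 6 tested higher and 1 lower. The 8 B cell markers summed to 13.8 to 19.7 CPM and 14.7 to 19.6 CPM, mostly Ighm, with Pax5 and Ebf1 at 0. The T and NK cell markers (10) summed to at most 1.48 CPM in any of the 6 libraries. Those of mast cells and basophils (10) summed to at most 0.288 CPM and those of erythroid cells (10) to at most 0.275 CPM. Only 2 B cell markers, 1 of T and NK cells, 1 of mast cells and basophils and 0 of erythroid cells had enough reads to be tested. None of those tested was called, and so few cannot show that these cell types did not differ between groups.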

How the data were processed

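Bulk RNA-seq of mouse macrophages was deposited by the authors as raw read counts per gene, 1 table per experiment. The submitters' processing notes name fastp, STAR, DESeq2 and the mm10 build, without versions. The counting tool, strand setting and annotation are not stated there. Of 35275 identifiers 34490 had a symbol in GENCODE M21. All rows named a gene, and no column was left out.

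Counts were tested with edgeR 4.0.16 in R 4.3.3 (quasi-likelihood F test, TMM, filterByExpr with a minimum count of 10, 1 coefficient per group), on all 21 libraries of experiment 1 (14 residual degrees of freedom, biological coefficient of variation 6.79%) and all 10 of experiment 2 (5 and 10.6%). P-values were adjusted over all 12662 or 13313 genes. DESeq2 1.42.0 and limma 3.58.1 (voom) were alternatives, beside other scalings and filters, library numbers as a block, a loess length offset, and leaving out libraries. CPM used TMM-scaled totals.

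Named genes were the 18 fixed ones, the 12 highest and 12 lowest called genes of at least 10 CPM without overlap between groups (5 and 5 for the interaction and for experiment 2, the interaction without the overlap condition), leaving out pseudogenes and clone or predicted names, and up to 4 called members per list, or the 2 most abundant where fewer than 2 were called. Separation of the groups in genes named for large called changes follows in part from that choice. The share of all genes without overlap was not counted. Other list members given by value were chosen after their values were seen. The comparison and all 23 gene lists were chosen with earlier results of these data known. Results on a few genes are not reported here.

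Library numbers in the labels paired the libraries: across genes, deviations from the group mean of same-numbered Dex + LPS and Dex + dBRD9 + LPS libraries correlated at 0.753, 0.441 and 0.574. The second and the third libraries correlated about as much with the other number (0.531 and 0.418), so that only the first libraries were told apart. Same-numbered libraries did not correlate in the other comparisons (0.064, -0.0822 and -0.00563 for dBRD9 + LPS and LPS). Libraries differed by more than sampling noise (chi-square per degree of freedom at least 2.31 between libraries of a group). In simulated counts for this comparison (12662 genes), 75% of 100 genes changed 1.5-fold and 92% of 100 changed 2-fold were recovered with 15 false calls. For the interaction (12662 genes) the shares were 58% and 86%, and for experiment 2 (13313 genes) 34% and 75%. Simulated counts were drawn independently for each gene and library, without the length trend of the first libraries. The changed genes were not taken from those of lowest level. Recovery and false calls in the presence of that trend were therefore not measured. Promoters came from RefSeq (GRCm38.p6), gene positions from GENCODE M21.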

Additional observations from a re-analysis of the deposited data

Results flagged for a closer look

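For 40 of the named genes the degrader's log2 fold change differed between cells with and without Dex by the interaction test (edgeR, adjusted over 12662 genes, 3.39% of which were called). Differences are given as the value with Dex minus the value without it. Some of these genes were named because they had the largest differences.

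The differences toward lower with Dex were largest in Tg (-2.77), Ccl17 (-1.96), Cbr2 (-1.62), the docking protein gene Cass4 (-1.51), the adrenergic receptor gene Adra1a (-1.32), Ctla2b (-1.31) and Stab1 (-1.14). The value of Tg depends on how reads between Tg and Sla were divided, which is not known. Its difference was not called without the first or the second dBRD9 + LPS library (adjusted p = 0.12 and 0.074). That of Cbr2 was not called without either of the same libraries (adjusted p = 0.091 and 0.073) or in limma-voom (adjusted p = 0.051). Smaller ones were in Acp5 (-0.95), Tsc22d1 (-0.83), F13a1 (-0.76), Il12b (-0.64), Serpinb2 (-0.61), Spp1 (-0.59), Tgm2 (-0.48), Ndrg1 (-0.45), Shisa3 (-0.45), Apoe (-0.37), Insig1 (-0.36), Pltp (-0.35), Atp6v0d2 (-0.32), Pcna (-0.31) and Traf1 (-0.30). Il12b had -0.07 with Dex and 0.57 without it. Ctla2b and Tsc22d1, both in the list of glucocorticoid receptor targets, had -1.25 and -1.22 with Dex and 0.06 and -0.39 without it.

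The differences toward higher with Dex were in Tnfsf10 (1.63), Tlr8 (1.42), the Schlafen gene Slfn4 (1.42), Saa3 (1.41), Mtfr2 (1.21), the interleukin-36 gamma gene Il1f9 (1.21), Egr1 (0.90), Cd69 (0.75), Mmp8 (0.73), C3 (0.72), H2-Ab1 (0.67), Gclm (0.52), Hmox1 (0.51), Nos2 (0.50), Cxcl10 (0.46), H2-DMb1 (0.44), G6pdx (0.34) and Srxn1 (0.30). C3 had 0.82 with Dex and 0.10 without it. Hmox1 had 0.27 and -0.24, and Gclm 0.31 and -0.20. Hmox1 and Gclm were thus called higher with Dex, beside values below 0 without it. The Hmox1 call was lost without the second Dex + LPS library (0.22, adjusted p = 0.051) or with only the 6 libraries (0.26, adjusted p = 0.12).

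For 18 named genes called in experiment 1, all libraries lay apart one way in experiment 1 and the opposite way in experiment 2, where IFNg stood beside LPS. This difference was not tested, and how many of all genes tested did the same was not counted. Groups of 2 libraries can lie apart where the change is small and not called. Of the 18, Socs1 and C3 were called in experiment 2 as well, at 0.66 and -0.75 (adjusted p = 0.022 and 0.011), beside -0.66 and 0.82 in experiment 1. The others lower in experiment 1 had values above 0 in experiment 2 that were not called: 0.18 for Tnf, 0.31 for Cxcl10, 0.29 for Cbr2, 0.12 for Irf1, 0.32 for H2-Ab1, 0.14 for Cd74, 0.39 for Chil3, 0.30 for Apoe, 0.25 for Insig1, 0.07 for Pltp, 0.24 for Pcna, 0.32 for Ndrg1, 0.54 for Asns and 0.23 for Atp6v0d2. Pbxip1 and Tnfsf10, higher in experiment 1 (0.96 and 0.69), had -0.37 and -0.55 in experiment 2 (adjusted p = 0.28 and 0.096).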

How the results depend on the processing

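With the library number as a replicate block, 3070 genes were called in place of 1999, and 3223 with the block and a length offset. With only the 6 libraries compared 579 were called, and 1176 with the block. Leaving out 1 library gave 1452 (without the third Dex + dBRD9 + LPS library) to 2558 (without the first Dex + LPS library). For dBRD9 + LPS against LPS the count was 2103, 3467 without both first libraries, which are not in its groups, 1955 with the block and 1618 to 1743 without 1 library. The interaction gave 429 genes, 949 without both first libraries, 714 with the length offset, 927 with the block and 266 to 890 without 1 library. In experiment 2 the count was 186, 515 without the filter on low counts, 285 in DESeq2, 135 with the block and 33 to 180 without 1 library. The cause of these shifts was not tested. Apart from the settings just given, the counts stayed within 1.5 times the value reported in the alternatives run.

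Of 106 named genes called in the comparison, 84 kept their call in all 18 alternatives, 22 lost it in at least 1 and 0 changed sign. Fitting only the 6 libraries lost 20 of them. Calls lost on leaving out 1 library were those of Ifnb1, Tnfsf10, Tgtp1, Hmox1, Tlr4, Cflar, Cd74, H2-DMb1, Smarcc2, Sqle, Ccnb2, Ldha and Pfkl, with adjusted p of at most 0.23. Of 24 named genes not called, 8 were called in at least 1 alternative. The block changed the call of Nos2, Tlr8, Aff1 and Ube2d3, each to called. Depth limits genes of few reads, such as Ifnb1 and Tgtp1, and 3 libraries a group limit small differences.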
